A study of Mus musculus with 9 samples.

Results

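The miR-148 and miR-152 family was described here through its 4 rows in a small-RNA table of mouse liver: mmu-miR-148a-3p, mmu-miR-148a-5p, mmu-miR-148b-3p and mmu-miR-152-3p, named below without the species prefix. The rows were taken by name, and all 4 were found among the 946 mature microRNAs (miRNAs) listed. The mice were C57 BL6 wild type and 8 weeks old, and their livers gave 9 libraries, 3 for each of 3 groups. Control mice were given saline. APAP mice received 500 mg/kg of acetaminophen (APAP), a painkiller that injures hepatocytes at high dose, by intraperitoneal injection. The dmPGE2+APAP mice received 300 µg/kg of dmPGE2, a methylated analog of prostaglandin E2, by the same route 1 h before that dose of APAP. Livers were taken 6 h after APAP, and the Control livers carry the same time label. No group with dmPGE2 alone was analysed here, so its effect was read only on top of APAP. Since no label ties a library to its own animal, the p-values reflect only how far these libraries vary, which may be technical.

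A miRNA hairpin is cut into a duplex of a 5p and a 3p arm, and usually one arm is kept in Argonaute as the guide while the other, the passenger, is degraded. Target messenger RNAs are recognised mainly through the seed, bases 2 to 8 of the guide. In this family the 3p arms are the guides. They are known to repress the DNA methyltransferase DNMT1, and miR-148a-3p, a major miRNA of hepatocytes, is also known to repress the LDL receptor and the cholesterol transporter ABCA1. The genes of miR-148b and miR-152 lie within Copz1 and Copz2, which encode zeta subunits of the vesicle coat COPI.

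The mature sequences of the 4 rows are printed 5′ to 3′ with the seed in capitals, because the 3 guides share it and the counting has to tell them apart. They are from RefSeq on GRCm38.p6, which held all 4.
miR-148a-3p: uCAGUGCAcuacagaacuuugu
miR-148b-3p: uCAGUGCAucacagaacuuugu
miR-152-3p: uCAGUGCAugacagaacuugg
miR-148a-5p: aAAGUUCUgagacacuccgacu
Only these 3 guides of the 1679 mature mouse miRNAs in that table carry the seed CAGUGCA. Counted from the 5′ end, miR-148b-3p differs from miR-148a-3p by C9U and U10C, so 20 of 22 bases are identical. From miR-148a-3p to miR-152-3p the differences are C9U, U10G and U20G, and 18 of the 21 compared bases are identical. The seed of miR-148a-5p, AAGUUCU, is shared with miR-148b-5p and with no other mature miRNA of the table. How many mismatches the mapping allowed is not given in the sources used here. Whether reads of the abundant miR-148a-3p were counted in the rows of its paralogs was not tested.

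The hairpins are printed on their own strand with both arms in capitals, to show where the compared arms lie.
Mir148a: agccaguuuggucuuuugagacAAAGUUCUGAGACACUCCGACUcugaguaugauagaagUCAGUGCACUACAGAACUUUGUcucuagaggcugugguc
Mir148b: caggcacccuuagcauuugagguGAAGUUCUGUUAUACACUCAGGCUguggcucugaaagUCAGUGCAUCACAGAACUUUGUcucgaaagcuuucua
Mir152: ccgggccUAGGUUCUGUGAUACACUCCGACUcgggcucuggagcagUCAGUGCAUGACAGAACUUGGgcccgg
On GRCm38.p6, Mir148a lies at chr6:51269812-51269910 on the minus strand, inside the span of the predicted gene Gm38821. Mir148b lies at chr15:103285125-103285221 on the plus strand, inside the span of Copz1. Mir152 lies at chr11:96850393-96850465 on the plus strand, inside the span of Copz2. Exons and introns were not looked up.

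The libraries held between 1038799 and 10483460 reads, with dmPGE2+APAP replicate 2 the shallowest. Levels are given as CPM, reads scaled to 1000000 per library after TMM correction of the totals. The hepatocyte marker miR-122-5p was the most abundant row at a mean of 199127 CPM, and the acinar pancreas markers, of a tissue also rich in miR-148a, summed to at most 0.478 CPM in any library. Over all 360 miRNAs tested with edgeR, 3 were called in APAP against Control (0.833%), 1 in dmPGE2+APAP against APAP (0.278%) and 1 in dmPGE2+APAP against Control (0.278%), at an adjusted p threshold of 0.05.

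The family was dominated by 1 strand. miR-148a-3p had a mean of 105727 CPM over the 9 libraries and was the 4th most abundant row, after miR-122-5p, miR-122b-3p, whose row holds nearly the same reads, and miR-21a-5p, and ahead of miR-192-5p at 84844 CPM. miR-152-3p followed in the family at 393 CPM (rank 50), then miR-148b-3p at 214 CPM (rank 72) and miR-148a-5p at 173 CPM (rank 75). All are 21 or 22 bases long, so no length term was used between them. How closely read counts follow the amounts of miRNAs with different sequences was not tested, so these are orders of reads. miR-148a-3p held 99.1% to 99.6% of the reads that carry the shared seed, and outnumbered miR-152-3p between 159 and 441 times. Within each of the 9 libraries miR-152-3p had more reads than miR-148b-3p, by a ratio of 1.21 to 2.48. The order of the last pair was not fixed: miR-148b-3p exceeded miR-148a-5p in 7 of 9 libraries, and their ranges overlapped.

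In APAP livers the mean levels of both miR-148a arms were below those of Control, but no family row passed the test. The 5p arm stood further below than the 3p arm, and the mean levels of the paralogs miR-148b-3p and miR-152-3p lay closer to Control. This order holds with TMM scaling: with library totals the log2 changes were -0.52 for miR-148a-5p, -0.17 for miR-148a-3p, 0.22 for miR-148b-3p and 0.39 for miR-152-3p. With edgeR 0 of 4 rows were called in this comparison (background 0.833%), 1 of 4 had an unadjusted p under 0.05 (background 9.72%), DESeq2 called 1 (background 4.39%) and limma-voom 0 (background 0.556%).

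miR-148a-5p, the passenger arm, had 273, 192 and 255 CPM in Control replicates 1, 2 and 3, and 145, 159 and 126 CPM in APAP replicates 1, 2 and 3. Every APAP library lay below every Control library, as was true of 8.06% of all tested miRNAs. The means were 240 ± 42.2 CPM in Control and 143 ± 16.4 in APAP (SD, n = 3). The fitted log2 change was -0.74 (SE 0.21, 95% interval -1.18 to -0.30), a ratio of 0.598, and edgeR's quasi-likelihood test gave 0.0969 after Benjamini-Hochberg adjustment. Its unadjusted p ranked 9 of 360. With DESeq2 the adjusted p was 0.0490, on the other side of the threshold, but DESeq2 adjusted over 296 miRNAs and edgeR over 360. The separation of the groups depended on the scaling. With library totals in place of TMM, Control replicate 2 had 145 CPM against 150, 153 and 153 CPM in the APAP libraries, the groups overlapped, and the log2 change was -0.52 with an edgeR adjusted p of 0.389. Scaling to library totals moved the median of all miRNAs by 0.25 on the log2 scale in this comparison.

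miR-148a-3p, the guide arm of the same hairpin, had 159381, 107346 and 118901 CPM in the Control libraries and 94156, 109718 and 87114 CPM in the APAP libraries. APAP replicate 2 lay above Control replicate 2, so the groups overlapped. The log2 change was -0.41 (SE 0.21, 95% interval -0.84 to 0.03), with an edgeR adjusted p of 0.519. Its value was -0.17 with library totals and -0.19 without Control replicate 1, its highest library. The 20 alternatives gave between -0.50 and -0.13.

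miR-148b-3p, whose hairpin lies in Copz1, had 270, 234 and 171 CPM in Control and 232, 213 and 208 CPM in APAP. The APAP libraries all fell within the Control range. The log2 change was -0.049 (SE 0.20, 95% interval -0.48 to 0.38; edgeR adjusted p 0.955), and it turned to 0.22 with library totals, so no direction is given.

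miR-152-3p, whose hairpin lies in Copz2, had 362, 282 and 411 CPM in Control and 406, 313 and 449 CPM in APAP. These groups overlapped as well. The log2 change was 0.15 (SE 0.21, 95% interval -0.31 to 0.60; edgeR adjusted p 0.859). It was 0.39 with library totals, and leaving out 1 library gave from 0.021, without Control replicate 2, to 0.29, without Control replicate 3. An interval of this width leaves room for a change in either direction.

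**Figure D1:**
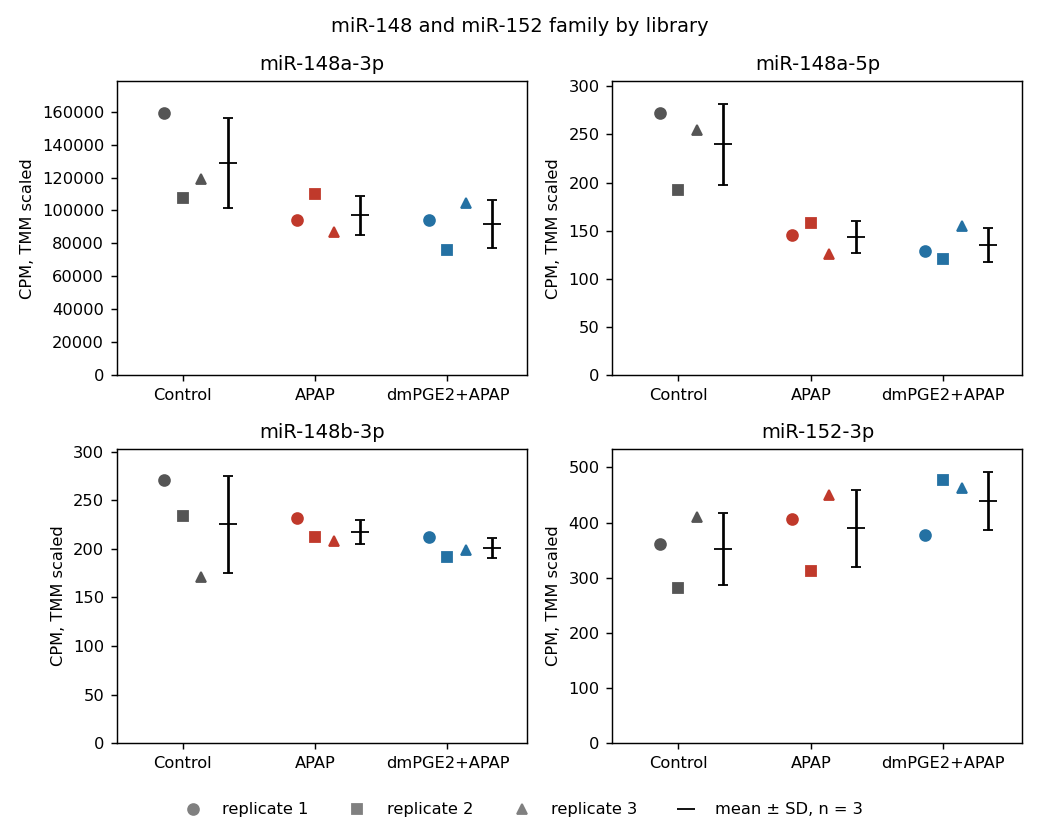
CPM after TMM scaling (vertical axes from 0) of the 4 family rows in each library; marker shapes give the replicate number and black bars the mean and SD of 3 libraries. For miR-148a-5p all 3 Control libraries, at 192 CPM or more, stand above all 6 others, at 159 CPM or less, while miR-148b-3p and miR-152-3p overlap between groups.

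Liver RNA in bulk cannot tell fewer cells of a type from less RNA per cell. The hepatocyte list, 8 of 8 rows tested, had 7 values below 0 in APAP against Control, with a median log2 change of -0.27 against -0.046 for all miRNAs and 0 calls with edgeR. Its summed level ran from 256897 to 417781 CPM over the Control libraries, 241650 to 278722 with APAP and 277457 to 288106 with dmPGE2 and APAP. Its part in the lower miR-148a values was not tested.

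When dmPGE2 was given before APAP, the family stood close to its levels with APAP alone. 0 of 4 rows were called with edgeR (background 0.278%), 0 had an unadjusted p under 0.05 (background 6.39%), and DESeq2 (background 2.23%) and limma-voom (background 0.278%) called 0. No row separated the groups in either direction, where 8.06% of all miRNAs were lower and 5.83% higher in every library. miR-148a-5p had 129, 121 and 155 CPM in dmPGE2+APAP replicates 1, 2 and 3, overlapping the APAP libraries, and its log2 change was -0.085 (SE 0.21, 95% interval -0.53 to 0.36). miR-148a-3p had 94275, 75856 and 104798 CPM, with a log2 change of -0.082 (SE 0.21, 95% interval -0.52 to 0.35). For both arms the sign turned when APAP replicate 2 or dmPGE2+APAP replicate 2 was left out. The paralogs overlapped between the groups too. miR-148b-3p had 212, 192 and 199 CPM (log2 -0.11, 95% interval -0.55 to 0.32), and miR-152-3p had 378, 476 and 462 CPM (log2 0.17, 95% interval -0.28 to 0.63). Over the 4 rows the edgeR adjusted p ran from 0.913 to 0.960. These intervals include changes of either sign, so they do not show that dmPGE2 left the family as it was.

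Against Control, the dmPGE2+APAP livers again had mean levels of both miR-148a arms below, and neither passed the test. edgeR called 0 of 4 rows (background 0.278%), with 2 at an unadjusted p under 0.05 (background 10.6%), and DESeq2 (background 0.557%) and limma-voom (background 0%) called 0. miR-148a-5p averaged 135 ± 17.7 CPM against 240 ± 42.2 in Control (SD, n = 3). Its log2 value was -0.83 (SE 0.21, 95% interval -1.27 to -0.38), with an edgeR adjusted p of 0.141, the 3rd lowest unadjusted p of the 360 miRNAs in this comparison. miR-148a-3p averaged 91643 ± 14649 CPM against 128542 ± 27324.5, a log2 value of -0.49 (SE 0.21, 95% interval -0.93 to -0.050; edgeR adjusted p 0.348). All 3 dmPGE2+APAP libraries lay below all 3 Control libraries for both arms, which was the case for 8.61% of tested miRNAs. For the 3p arm the gap was narrow, with 104798 CPM in the highest dmPGE2+APAP library and 107346 in the lowest Control library. With library totals both arms overlapped between the groups, at log2 values of -0.26 for the 3p arm and -0.61 for the 5p arm. Without Control replicate 1 the 3p arm stood at -0.22.

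The guides of the paralogs overlapped Control in this comparison. miR-148b-3p had a log2 value of -0.16 (95% interval -0.60 to 0.27) in dmPGE2+APAP against Control, which became 0.093 with library totals, so no direction is given. In this comparison library totals moved the median of all miRNAs by 0.22. miR-152-3p was the only one of the 4 rows with a value above 0, in all 3 comparisons, and stood at 0.32 (SE 0.21, 95% interval -0.13 to 0.77; edgeR adjusted p 0.559) against Control, where the groups overlapped and 6.11% of all miRNAs were higher in every library. With library totals this value was 0.54. The comparisons with Control share the Control libraries, so their likeness is no separate evidence. The median over the 4 rows was -0.23 in APAP against Control, -0.083 in dmPGE2+APAP against APAP and -0.33 in dmPGE2+APAP against Control, beside -0.046, 0.00037 and -0.032 over all tested miRNAs.

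**Figure D2:**
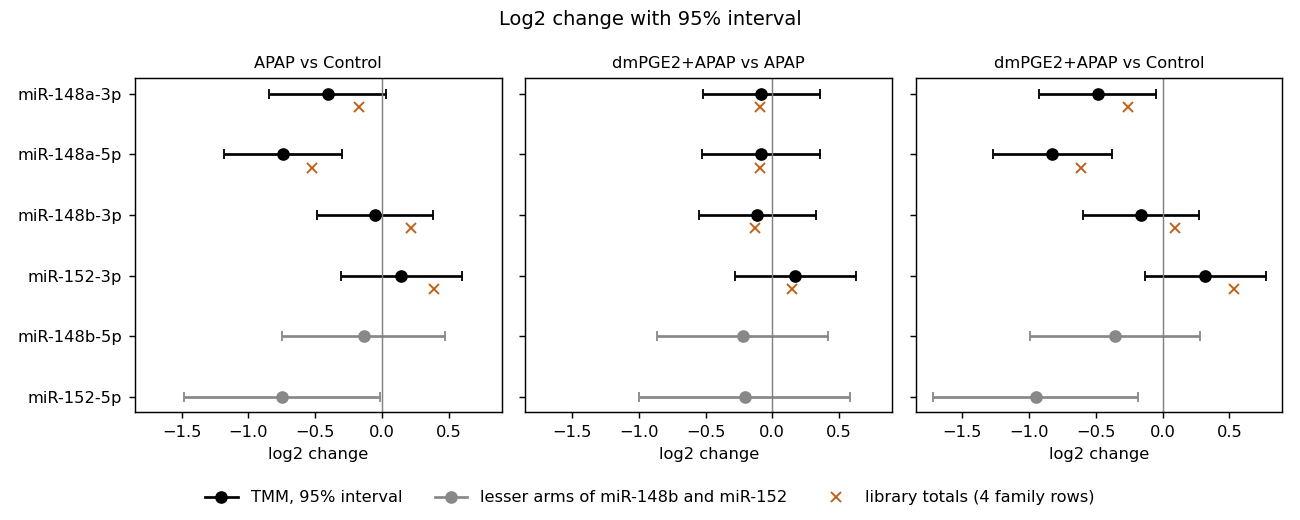
Log2 change (horizontal axes) of the 4 family rows in black and of the 5p arms of miR-148b and miR-152 in grey, as points with 95% intervals from the edgeR fit, in the 3 comparisons; orange crosses give the value of the 4 family rows with library totals. miR-148a-5p lies furthest from 0 of the 4 family rows in both comparisons with Control, at -0.74 and -0.83, and the crosses lie to the right of the points in those comparisons. The grey miR-152-5p lies further from 0 there, at -0.75 and -0.95, with wider intervals.

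Since both arms of a hairpin are counted in the same library, their ratio does not depend on library scaling. miR-148a-5p had 1.71, 1.79 and 2.14 reads per 1000 reads of miR-148a-3p in Control replicates 1, 2 and 3. APAP libraries had 1.54, 1.45 and 1.45, and dmPGE2+APAP libraries had 1.37, 1.60 and 1.48. Every Control library was thus above every library given APAP. The mean ratio was 1.88 ± 0.228 for Control, 1.48 ± 0.0566 after APAP and 1.48 ± 0.114 after dmPGE2 and APAP (SD, n = 3). The arm by group term of an edgeR model over 98 hairpins with both arms tested gave a log2 change of the 5p to 3p ratio of -0.34 (SE 0.28, 95% interval -0.93 to 0.25; adjusted p 0.625) in APAP against Control. For dmPGE2+APAP and Control it gave -0.35 (SE 0.28, 95% interval -0.94 to 0.24; adjusted p 0.684). Neither passed, so the change of the 5p arm was not shown to differ from that of the 3p arm. Between dmPGE2+APAP and APAP the log2 change of the ratio was -0.0044 (SE 0.28, 95% interval -0.59 to 0.58).

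Ratios of this kind separated often. In APAP against Control the 5p to 3p ratio was lower in all 3 libraries for 12.2% of hairpins, in dmPGE2+APAP against APAP for 4.08% and in dmPGE2+APAP against Control for 15.3%. Of the 98 hairpins, 1 was called in APAP against Control with edgeR (1.02%), which was miR-21a, and 10.2% had an unadjusted p under 0.05. With dmPGE2+APAP set against APAP and against Control, edgeR called 0 (0%), with 2 (2.04%) and 13 (13.3%) at an unadjusted p under 0.05, and limma on log2 ratios with a pseudocount of 5 called 0 and 2.

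The 5p arms of the other family hairpins are passengers too and were rare. miR-152-5p had 67, 89 and 118 reads in Control replicates, 53, 52 and 19 after APAP, and 42, 2 and 36 after dmPGE2 and APAP, so its values there rest on few reads. Per 1000 reads of miR-152-3p Control libraries had 27.2, 42.8 and 26.4, APAP libraries 18.8, 22.7 and 10.1, and dmPGE2+APAP libraries 15.7, 3.58 and 15.9. Every Control library had a higher ratio than every other library. The log2 change of the ratio was -0.88 (SE 0.39) in APAP against Control, with an edgeR adjusted p of 0.428, and -1.25 (SE 0.42) in dmPGE2+APAP against Control, with 0.132. As a level, miR-152-5p averaged 10.9 ± 1.13 CPM for Control, 6.43 ± 1.65 after APAP and 5.0 ± 2.94 after dmPGE2 and APAP (SD, n = 3), with edgeR adjusted p of 0.478 and 0.336 against Control. The log2 changes of this level were -0.75 (SE 0.35) and -0.95 (SE 0.36). Every Control library lay above every library of both other groups with TMM (background 8.06% and 8.61%), and also with library totals.

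miR-148b-5p had 73.8, 75.0 and 68.9 reads per 1000 reads of miR-148b-3p in Control livers, 82.0, 68.9 and 51.8 after APAP, and 59.3, 62.2 and 67.9 after dmPGE2 and APAP. APAP overlapped Control, while the dmPGE2+APAP libraries lay just below it. The log2 change of this ratio was -0.11 (SE 0.29) and -0.20 (SE 0.31) against Control, with edgeR adjusted p of 0.894 and 0.786. All 3 family hairpins therefore had lower ratios in each dmPGE2+APAP library than in each Control library, against a background of 15.3%, and 0 of 3 passed the test. In APAP against Control (background 12.2%) this held for miR-148a and miR-152 but not for miR-148b. In dmPGE2+APAP against APAP (background 4.08%) each of the 3 hairpins overlapped. The 3 ratios come from the same libraries, so they are not independent. Another background takes the lesser arm over the greater arm of each hairpin, which in this family is 5p over 3p. That ratio was lower in all 3 libraries for 9.18% of hairpins in APAP against Control. The share was 3.06% in dmPGE2+APAP against APAP and 10.2% in dmPGE2+APAP against Control.

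**Figure D3:**
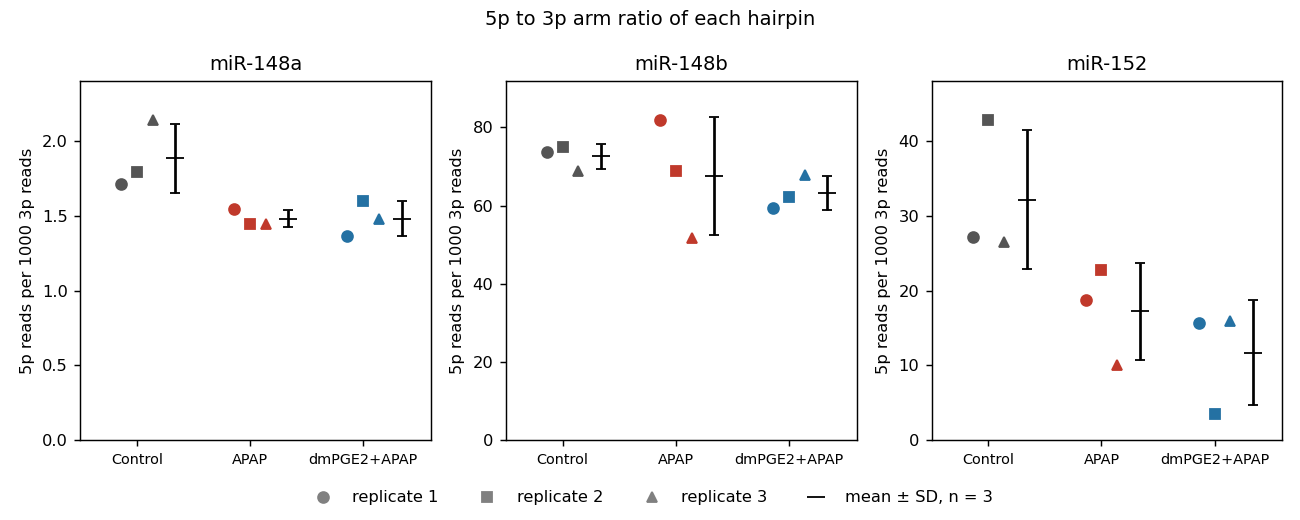
Reads of the 5p arm per 1000 reads of the 3p arm (vertical axes from 0) for the hairpins of miR-148a, miR-148b and miR-152 in each library; shapes give the replicate number and bars the mean and SD of 3 libraries. For miR-148a and miR-152 all Control points lie above all others, and the lowest miR-152 point, 3.58 in dmPGE2+APAP replicate 2, rests on 2 reads of the 5p arm.

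The guides with a shared seed were also compared within each library, where scaling does not enter. miR-152-3p had 2.27, 2.63 and 3.46 reads per 1000 reads of miR-148a-3p in Control livers, 4.31, 2.85 and 5.16 after APAP, and 4.01, 6.28 and 4.41 after dmPGE2 and APAP. The dmPGE2+APAP libraries all lay above Control, while APAP replicate 2 lay inside the Control range. On the log2 scale the ratio was 0.54 higher in APAP than in Control (exact permutation p = 0.2, two-sided) and 0.81 higher in dmPGE2+APAP than in Control (exact permutation p = 0.1). The smallest p that 3 against 3 libraries allow is 0.1, so this test cannot pass 0.05. How often ratios between other miRNAs separate the groups was not counted. miR-148b-3p had 1.70, 2.18 and 1.44 reads per 1000 in Control livers, 2.46, 1.94 and 2.39 after APAP, and 2.25, 2.53 and 1.90 after dmPGE2 and APAP. Those ranges overlapped in every pair of groups, with log2 differences of 0.37 and 0.34 from Control (exact permutation p = 0.2 each).

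Together the 3 guides summed to 129119 ± 27378 CPM for Control, 97603 ± 11497 after APAP and 92283 ± 14639 after dmPGE2 and APAP (SD, n = 3). The log2 difference of this sum was -0.39 in APAP and -0.48 in dmPGE2+APAP from Control, with exact two-sided permutation p of 0.2 and 0.1. With library totals these differences were -0.13 and -0.23, and without Control replicate 1 they were -0.22 and -0.31. Between dmPGE2+APAP and APAP it was -0.087 (exact permutation p = 0.7). In that comparison the ratio to miR-148a-3p differed by 0.27 for miR-152-3p (exact p = 0.5) and by -0.026 for miR-148b-3p (exact p = 0.9). The former was 0.029 without APAP replicate 2 and 0.078 without dmPGE2+APAP replicate 2. Adjusted over these 9 tests by Benjamini-Hochberg, the lowest permutation p was 0.3. The paralogs added less than 1% of the reads of miR-148a-3p in each library. The sum therefore had to follow miR-148a-3p and is no separate evidence.

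**Figure D4:**
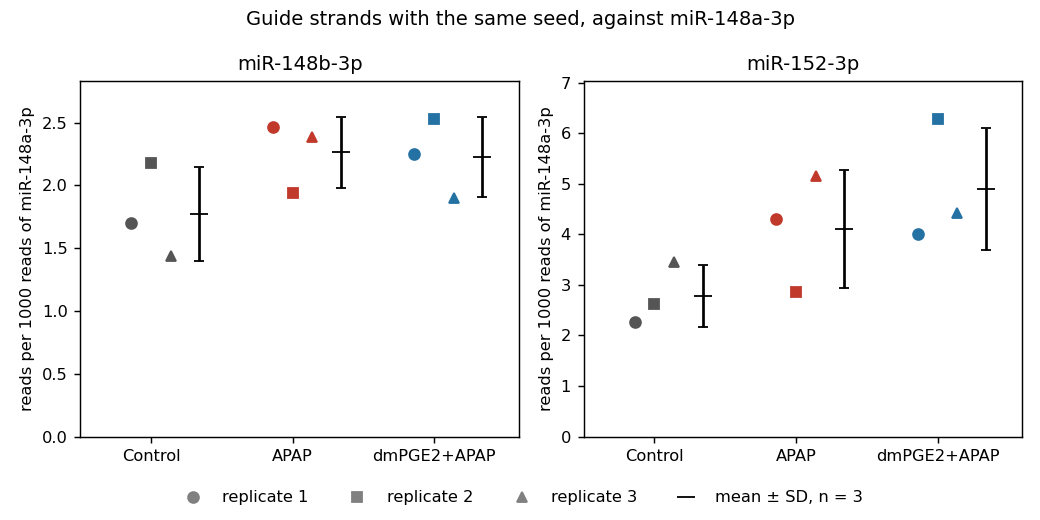
Reads of miR-148b-3p and miR-152-3p per 1000 reads of miR-148a-3p (vertical axes from 0) in each library; shapes give the replicate number and bars the mean and SD of 3 libraries. For miR-152-3p the dmPGE2+APAP points, from 4.01 to 6.28, lie above the Control points, from 2.27 to 3.46, and the APAP points span both.

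Over the 9 libraries both arms of miR-148a varied alike, while miR-152-3p was no closer to miR-148a-3p than the median miRNA was. Likeness was measured as the root-mean-square difference of log2 CPM after each miRNA's own mean was subtracted, among 205 other miRNAs with at least 10 CPM on average. The miRNA closest to miR-148a-5p was miR-148a-3p at 0.19, followed by miR-455-5p at 0.21 and miR-30c-2-3p at 0.22, where the median candidate stood at 0.49. Closest to miR-148a-3p were miR-532-5p at 0.15, miR-455-5p at 0.17 and miR-30c-2-3p at 0.18, with miR-148a-5p the 6th. Closest to miR-148b-3p were miR-186-5p and miR-22-3p, each at 0.12, and miR-1843a-5p at 0.13. Closest to miR-152-3p were miR-497a-5p at 0.084 and, at 0.092 each, miR-3074-5p and miR-24-3p, whose rows differ by at most 0.175% of reads and so are 1 signal. For likeness to miR-148a-3p, miR-148b-3p ranked 19 of 205 at 0.26 and miR-152-3p ranked 126 at 0.45. The median candidate for miR-148a-3p stood at 0.40. These are descriptions over 9 libraries that share group structure and scaling.

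**Figure D5:**
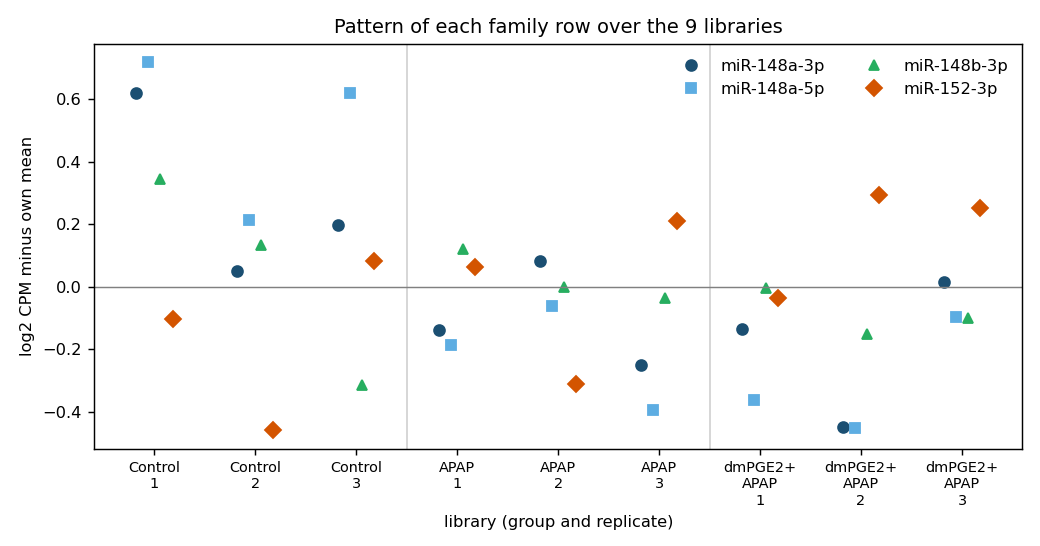
Log2 CPM minus each row's own mean over the 9 libraries (vertical axis), by library (horizontal axis), for the 4 family rows. Both miR-148a arms are above 0 in the 3 Control libraries, with Control replicate 1 highest at 0.62 and 0.72, and miR-152-3p is lowest in Control replicate 2 at -0.46 and highest in dmPGE2+APAP replicate 2 at 0.30.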

How the data were processed

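Mature miRNAs of mouse liver were measured by small RNA sequencing in 9 libraries, and the deposited values are raw read counts, per the file headers. The table also holds deposited TPM values, each of which is the count over the library's total with no length term, and served for alternatives only. Per the submitters' processing notes, Bowtie was among the tools and mm10 was the build. The sources used here do not give its version, the mismatches allowed, the counting tool or the annotation. APAP and dmPGE2+APAP columns match the labels, while those prefixed BC were assigned to Control, the remaining group. All value columns were assigned, leaving 0 unused. 0 other rows held nearly the same reads as a family row (within 5% or 2 reads in every library). No pair of replicates agreed within sampling noise.

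The main test was that of edgeR 4.0.16 in R 4.3.3 (TMM, filterByExpr with minimum count 10 and minimum total 15, robust quasi-likelihood test, all 9 libraries in 1 fit of 3 group means). All 4 family rows passed the filter, which left 360 miRNAs, and p-values were adjusted over all of them. Standard errors were derived from the F statistic. Arm ratios were tested in edgeR with a term for each library and an arm by group term over 98 hairpins. Ratios between paralogs and their sum were tested by exact two-sided permutation over libraries. DESeq2 1.42.0, limma 3.58.1 and the other alternatives are in the closing section. The scripts were tested on simulated data. The members and lists were chosen with earlier results of these data known. Named miRNAs were the family rows and their partner arms, the 3 most alike in pattern to each, up to 2 of the most abundant of each list, the hairpins with the lowest p, and neighbours in rank.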

Additional observations from a re-analysis of the deposited data

How the results depend on the processing

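The 15 fitted family results had 288 values under their alternatives, of which 271 kept their direction and side of the threshold, 16 changed sign and 1 passed the threshold, miR-148a-5p in APAP against Control with DESeq2 (log2 -0.72, adjusted p 0.0490). Of 66 values of the 9 permutation results, which cannot pass the threshold at this size, 61 kept their sign and 5 changed it. miR-148a-5p kept its sign in APAP against Control in all 20 alternatives (-0.86 to -0.45, adjusted p up to 0.485), and so did its value in dmPGE2+APAP against Control (-0.93 to -0.54, adjusted p 0.0620 to 0.448). Leaving out 1 library gave -0.86 to -0.61 and -0.91 to -0.65. The sign of miR-148b-3p in APAP against Control turned with library totals (0.22), after thinning to 1038799 reads a library (0.077), with deposited TPM (0.23 with a pseudocount of 1, 0.22 with 10) and within the leave-one-out range of -0.19 to 0.15. In dmPGE2+APAP against Control it turned with library totals (0.093), TPM (0.11 and 0.10) and within the range of -0.30 to 0.085. In dmPGE2+APAP against APAP, leaving out 1 library gave -0.17 to 0.076 for miR-148a-3p, -0.18 to 0.022 for miR-148a-5p, -0.058 to 0.052 for the arm ratio of miR-148a, 0.029 to 0.46 for the ratio of miR-152-3p to miR-148a-3p, -0.13 to 0.085 for that of miR-148b-3p to miR-148a-3p and -0.19 to 0.042 for the sum of guides, and limma with a pseudocount of 5 gave 0.012 for the arm ratio. In that comparison the ratio of miR-152-3p to miR-148a-3p kept its sign. The causes of the sign changes were not tested.

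Counts called over the main fit's 360 miRNAs were 3, 1 and 1 in APAP against Control, dmPGE2+APAP against APAP and dmPGE2+APAP against Control. In this order they became 8, 1 and 2 with library totals, 7, 1 and 2 with RLE factors, 13, 8 and 2 with DESeq2, 2, 1 and 0 with limma-voom, 9, 9 and 2 without the filter, 0, 1 and 0 for miRNAs averaging 10 CPM or more, 7, 0 and 1 with only the 2 groups fitted, 1, 1 and 0 after thinning, 8, 1 and 1 with TPM and a pseudocount of 1, and 7, 1 and 0 with a pseudocount of 10. Leaving out 1 library gave 0 to 9, 0 to 5 and 1 to 2. Not every setting tested 360 miRNAs. DESeq2 adjusted over 296, 359 and 359, and the settings without the filter or with another filter tested other sets. Counts of hairpins with a called arm ratio, 1, 0 and 0, were recounted by alternatives chosen after seeing the data and ranged from 0 to 2, 0 to 0 and 0 to 3.

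The labels do not say whether the replicate number pairs these libraries. Correlations of same-numbered deviations ran from -0.25 to 0.17, which cannot settle this with 3 libraries a group. With the replicate number as a block, 0, 2 and 1 miRNAs were called, miR-148a-5p had log2 values of -0.73 (edgeR adjusted p 0.151) and -0.82 (0.273) against Control, and no family row changed its side of the threshold. The arm ratio of miR-148a was -0.34 in APAP against Control with this block. Depth limits miR-152-5p most, at 2 reads in the shallowest library.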

Other observations

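A list was made of miRNAs known, like miR-148a-3p, to repress the LDL receptor or ABCA1. Most of its tested rows had values above 0 in APAP against Control, while its summed level stayed within the Control range. Of its 11 members 10 were in the table and 8 were tested. Of these 8, 7 had values above 0 in APAP against Control, with a median log2 change of 0.42 against -0.046 for all miRNAs, and edgeR called 0 (0.833% of all miRNAs were called). In dmPGE2+APAP against APAP, 6 of 8 lay below 0, with a median of -0.23, and in dmPGE2+APAP against Control 5 lay above 0 and 3 below, with a median of 0.17. Its most abundant members were miR-26a-5p, with a log2 value of -0.22 (SE 0.19) in APAP against Control, and miR-27b-3p, with 0.19 (SE 0.22). The sum of the list's 10 rows ran from 30320 to 39688 CPM over the Control libraries and 31437 to 32672 with APAP. The list shares miR-144-3p with the erythroid list below, so they are not independent. The list was chosen with earlier results of these data known, and its counts are a description.

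miR-130a-3p has a seed that overlaps the family's with a shift of 1 base and was the only tested row of the miR-130 and miR-301 family. It averaged 22.1 ± 1.68 CPM for Control, 31.1 ± 4.80 after APAP and 35.3 ± 5.63 after dmPGE2 and APAP (SD, n = 3), with log2 values of 0.49 (SE 0.23) and 0.66 (SE 0.24) against Control and edgeR adjusted p of 0.50 and 0.277. The miR-29 family, which like miR-148 is known to repress DNA methyltransferases, had medians of 0.067, -0.029 and 0.21 over 3 tested rows in APAP against Control, dmPGE2+APAP against APAP and dmPGE2+APAP against Control.

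Over the cell type lists the median log2 values in APAP against Control were 1.17 for 6 erythroid rows, 0.59 for 4 myeloid rows, -0.0098 for 9 mesenchymal and stellate rows, 0.13 for 2 endothelial rows, 0.015 for 6 epithelial and cholangiocyte rows and -0.96 for 4 muscle rows. The muscle rows varied widely in Control, where their sum ran from 482 to 2700 CPM, overlapping 315 to 903 CPM with APAP. Over all miRNAs the median in APAP against Control was -0.046, and edgeR called 0 rows of these lists there (background 0.833%). For dmPGE2+APAP and APAP the medians of the lists were -1.23, -0.75, 0.12, 0.076, 0.16 and -0.43, beside 0.00037 for all miRNAs. In that comparison edgeR called 1 row of these lists as lower, the erythroid miR-451a (background 0.278%). It was the only miRNA called there among all 360.

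Next to miR-21a (log2 -2.48, SE 0.50, edgeR adjusted p 0.0122), the arm ratios with the lowest p in APAP against Control were those of miR-503 (2.04, SE 0.55) and miR-350 (-1.36, SE 0.46). With dmPGE2+APAP set against APAP they were miR-99a (2.01, SE 0.63), miR-700 (-2.45, SE 0.88) and miR-30b (-0.81, SE 0.38), and against Control miR-99a (2.42, SE 0.59), miR-21a (-1.83, SE 0.51) and miR-425 (-1.10, SE 0.35), with edgeR adjusted p of 0.0796 or more. The lesser arm averaged 0.979 CPM over the 9 libraries for miR-99a, 1.66 for miR-350, 1.76 for miR-700 and 2.63 for miR-503. The other arm of miR-700 averaged 1.84 CPM and that of miR-503 4.67. The ratios of these hairpins therefore rest on few reads.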
